A study of Mus musculus with 21 samples.

Results

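Among the stretches of the mouse genome that were methylated in sperm, a small set was picked out here for its high number of bisulfite reads. These well-covered methylated bins are fixed stretches of 200 bp on the autosomes (1 to 200, 201 to 400 and so on). Each has at least 3 listed CpGs, no CpG above 19 reads, a mean of 9 or more reads per CpG, and over 80% of its reads methylated once all its CpGs are pooled. There were 4883 of them among 6616455 autosomal bins with any listed CpG. Of the autosomal bins, 1929191 had at least 3 listed CpGs, all of up to 19 reads, and 1336389 of those were over 80% methylated. The bins were thus chosen by their own read numbers and methylation, and those values are given as a description only. They are set against the other 1331506 bins over 80% methylated, called the other methylated bins here, with the same number of CpGs.

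In sperm most histones are replaced by protamines, small basic proteins that pack the DNA tightly, and nucleosomes remain at a minority of sites. Retained nucleosomes of mouse sperm are best known from CpG islands, CpG-rich stretches that usually lack DNA methylation and often contain promoters. The rest of the mammalian genome has few CpGs, and most of those carry a methyl group on the cytosine.

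The series holds 21 chromatin, RNA and bisulfite samples of C57BL/6 sperm and round spermatids, and 20 of them were not analysed here. The remaining sample is 1 bisulfite library of nucleosome-associated DNA from C57BL/6 sperm with no genetic change or treatment named. Sperm had been selected by swim-up, which favours motile cells, and chromatin digested with micrococcal nuclease, which cuts the DNA between nucleosomes. The number of mice that supplied the sperm is not stated in the labels.

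The library listed 15544856 CpGs with 60995624 CpG reads and a median of 3 reads per listed CpG. On the 19 autosomes 3.26% of listed CpGs had 9 or more reads and 0.0815% had more than 19, and the mean of the CpGs of up to 19 reads was 3.27. With 1 library there is no replicate and no test between groups. Intervals in brackets are 95% intervals, by Wilson's method for shares and from the read sums for ratios. They cover counting error only. They are too narrow, since 1 read can count at several CpGs and PCR copies were not told apart from independent molecules.

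Most of the well-covered bins held few CpGs and lay just above the limit on reads. Of the 4883 bins, 3031 had 3 CpGs, 1099 had 4, 445 had 5, 184 had 6 and 124 had 7 or more. Their mean reads per CpG had a median of 9.67 (quartiles 9.2 and 10.3) and a highest value of 18.3. A mean of under 10 reads was found in 2874 of them and a mean of 12 or more in 381. The total over a bin's CpGs had a median of 32 CpG reads, against 11 in the other methylated bins, whose levels are correspondingly coarser.

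Methylation in the chosen bins was often close to complete, as it was in the other methylated bins. The pooled level had a median of 95% (quartiles 90.3% and 97.6%), 3683 bins exceeded 90%, and 987 had no unmethylated read at all. In the other methylated bins, with fewer reads each and not matched on CpG count, the median was 100% (quartiles 90.9% and 100%). Pooled over their 17812 CpGs, 93.8% of 178234 CpG reads were methylated. A CpG under 50% occurred in 63 bins, or 1.29%, and 64 CpGs in all, or 0.359%, had such a level. Low levels at single CpGs were thus rare inside these bins. This rarity follows largely from the choice, since the limit on the pooled level leaves little room for such a CpG in a bin with few CpGs. The same shares were not taken in the other methylated bins, so no conclusion is drawn from them.

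Read totals often differed between the CpGs of a bin. No such values are given for the other methylated bins, and the part of counting scatter in these differences was not tested. The gap between its highest and its lowest CpG total had a median of 6 reads (quartiles 3 and 9). Every CpG reached 9 reads in 1109 bins, while 993 bins held a CpG with fewer than 5. The totals of all CpGs were equal in 172 bins.

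The limit of 9 reads cuts through a continuous range. Exactly 9 reads per CpG were found in 1137 of the bins, 2039 had a mean under 9.5, and 2054 other methylated bins had a mean of at least 8.5. Just inside, 2 bins of 11 CpGs with a mean of 9 lay on chromosome 1 from 76099001 to 76099200, with a level of 98% (92.9 to 99.4), and on chromosome 2 from 180273401 to 180273600, with a level of 96% (90.1 to 98.4). A bin of 10 CpGs on chromosome 2 from 130219201 to 130219400 also had a mean of 9, and its level was 100%. Just outside, a bin of 9 CpGs on chromosome 6 from 28907601 to 28907800 had a mean of 8.89 and a level of 95%. Bins of 8 CpGs with a mean of 8.88 lay on chromosome 3 from 27940801 to 27941000 (level 95.8%) and on chromosome 10 from 23919201 to 23919400 (level 80.3%).

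The bins with the highest means showed 2 kinds of surroundings. The highest mean, 18.3, was on chromosome 1 from 90162201 to 90162400, where the CpGs at 90162243, 90162248 and 90162364 had 19, 17 and 19 reads, of which 19, 16 and 18 were methylated. Around it the 15 listed CpGs of up to 19 reads in bins 2 to 5 on each side averaged 14.5 reads, and 13 CpGs within 1 kb had more than 19. This bin lay in a wider stretch of deep coverage. The next, on chromosome 11 from 15635801 to 15636000, had 18, 18, 18 and 17 reads at the 4 CpGs from 15635942 to 15635957, each 5 bp from the last, and 70 of these 71 reads were methylated. No CpG was listed in the bins beside it, and 4 CpGs further out averaged 2 reads. This bin stood alone.

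A bin on chromosome 17 from 13403201 to 13403400 had 19, 19 and 15 reads and a level of 86.8% (75.2 to 93.5), with an average of 5.9 reads over 10 CpGs in bins 2 to 5. The 5 CpGs of a bin on chromosome 3 from 25448001 to 25448200 had 19, 18, 15, 17 and 18 reads, and its level of 80.5% (70.9 to 87.4) was barely above the limit. Its 8 CpGs of up to 19 reads in bins 2 to 5 averaged 6.25 reads at a level of 68%, 3 CpGs within 1 kb had more than 19, and an adjacent CpG had 16 reads, of which 25% were methylated. The bin on chromosome 1 from 177993801 to 177994000 had 17, 16 and 19 reads at CpGs 4 bp apart, a level of 88.5% (77.0 to 94.6), and 1 listed CpG, with 1 read, in bins 1 to 5 on both sides. Wide and narrow deep coverage thus both occurred at the top of the ranking.

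The bins with the most CpGs were methylated, CpG-dense DNA with means of 9.05 to 10.9 reads. Bins 2 to 5 around them averaged from 2 reads on chromosome 17 to 3.8 on chromosome 14. Around other methylated bins with 7 or more CpGs that average was 3.25. The largest held 20 CpGs, on chromosome 8 from 124927001 to 124927200, with a mean of 9.05 reads and a level of 98.9% (96.1 to 99.7). Reads per CpG were highest, at 13 or 14, from 124927054 to 124927105, and lowest, at 3, from 124927156 to 124927168. Of its 19 successive distances 12 were 6 bp. The 8 CpGs in the adjacent bins averaged 2.38 reads and the 11 in bins 2 to 5 averaged 2.82.

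The 16 CpGs on chromosome 17 from 66011001 to 66011200 had a mean of 9.06 reads and a level of 99.3% (96.2 to 99.9). Their reads formed 2 blocks, with 10 to 12 reads from 66011078 to 66011104, 1 and 2 reads at 66011141 and 66011147, and 10 or 11 reads from 66011158 to 66011190. The 12 CpGs in bins 2 to 5 had 2 reads on average and no unmethylated read. On chromosome 14 from 92489201 to 92489400, 12 CpGs followed each other every 7 bp, with a mean of 10.9 reads and a level of 99.2% (95.8 to 99.9). Totals there were 4 reads at the first CpG, 16 at the eighth and 13 at each of the last 4.

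The bin of 12 CpGs on chromosome 5 from 122022601 to 122022800 had a mean of 9.83 reads and a level of 99.2%, and 39 CpGs in bins 2 to 5 averaged 3.46 reads with a level of 94.8%. The bin of 12 CpGs on chromosome 9 from 121120601 to 121120800 had a mean of 9.67 reads and a lower level, 85.3% (77.8 to 90.6). Its reads peaked at 18 from 121120650 to 121120665, and the CpG at 121120697 had 1. Within each of these 5 bins, totals ranged from 6 to 15 reads or more widely.

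**Figure D1:**
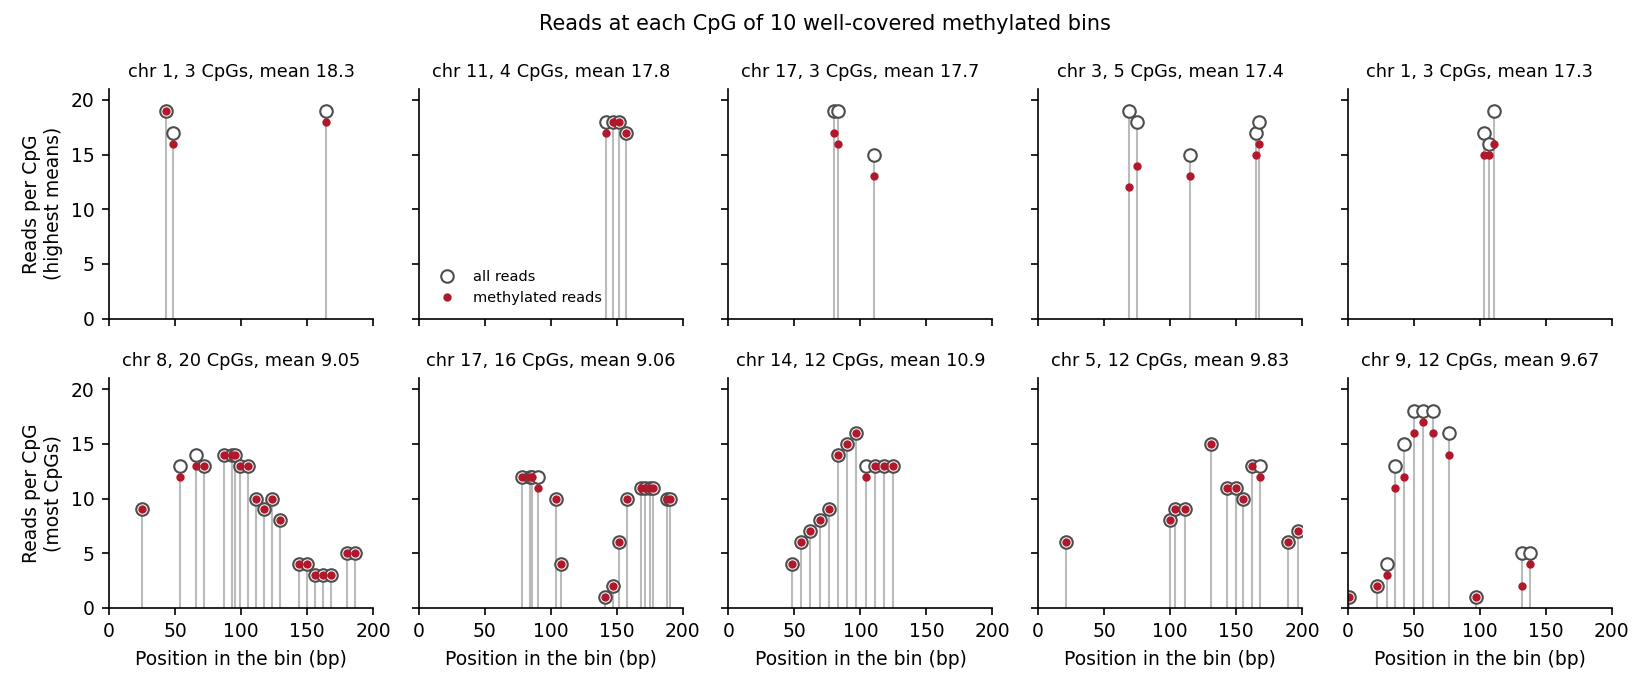
Each panel is 1 bin of 200 bp, with the position in the bin on the horizontal axis (bp) and reads per CpG on the vertical axis. Open circles are all reads and filled points methylated reads; the upper row holds the 5 bins with the highest means (17.3 to 18.3) and the lower row the 5 with the most CpGs (12 to 20), where totals rise and fall within the bin.

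The share of methylated bins that were well covered fell with the number of CpGs. A mean over few CpGs varies more and so passes a high fixed limit more easily, and the part this plays was not tested. Over all CpG counts the share was 0.365%, against 0.64% of bins of 20 to 80% methylation and 2.85% of bins under 20%. It was 0.608% over bins of all levels. By CpG count it was 0.463% of methylated bins with 3 CpGs (0.447 to 0.479), 0.321% with 4 (0.302 to 0.340), 0.259% with 5 (0.236 to 0.284), 0.217% with 6 (0.188 to 0.251) and 0.151% with 7 or more (0.127 to 0.181).

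Bins of lower methylation went the other way. Among bins under 20% methylated the share was 1.78% with 3 CpGs (1.60 to 1.99) and 3.44% with 7 or more (3.32 to 3.57). Bins of 20 to 80% had 0.471% with 3 CpGs (0.443 to 0.50), an interval that overlaps that of the methylated bins, and 1.60% with 7 or more (1.48 to 1.72). The distance between methylated and unmethylated bins was therefore widest where CpGs were most numerous. All these values come from the quantities that chose the bins and are a description of the table.

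**Figure D2:**
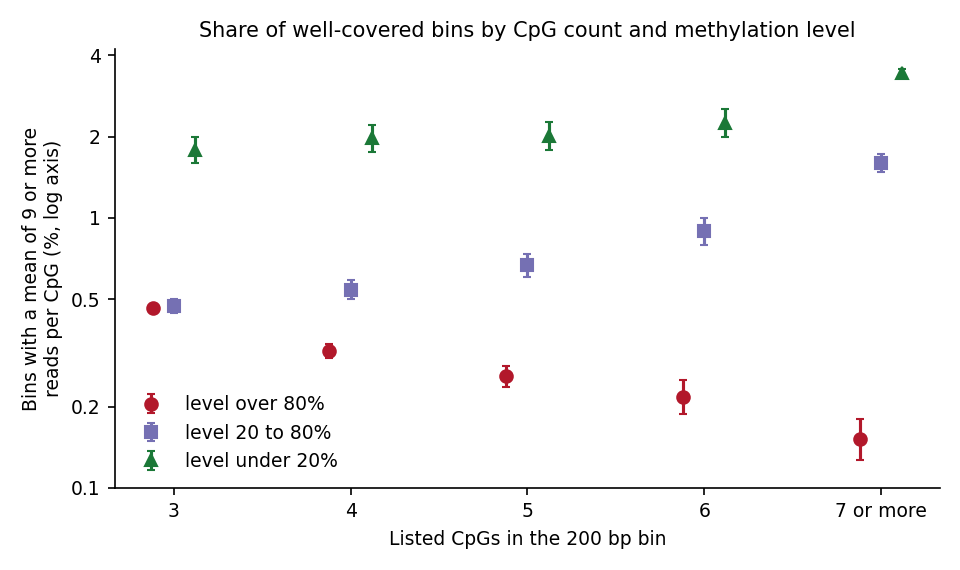
Percentage of bins with a mean of 9 or more reads per CpG (log axis) by the number of listed CpGs, for bins over 80%, of 20 to 80% and under 20% methylated, with 95% Wilson intervals. The methylated bins run from 0.463% at 3 CpGs to 0.151% at 7 or more, while bins under 20% run from 1.78% to 3.44%.

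The CpGs of the well-covered bins lay closer together than those of the other methylated bins, a property that the choice did not use. With 3 CpGs, the distance from the first to the last CpG had a median of 56 bp (quartiles 33 and 91) in the well-covered bins and 88 bp (quartiles 53 and 127) in the others. It was under 50 bp in 44.7% of the 3031 well-covered bins and in 22.5% of the 651970 others. Medians were 83 bp against 112 bp with 4 CpGs, 98 bp against 128 bp with 5, 113 bp against 139 bp with 6, and 134.5 bp against 151 bp with 7 or more. Close CpGs share more of their reads, and the part this plays was not tested.

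Regular spacing was also more common. A bin is called regular where more than 50% of the distances between its successive CpGs have the same length, as at the 7 bp steps on chromosome 14. This held for 174 of the 4883 well-covered bins, or 3.56% (3.08 to 4.12), against 2.06% of other methylated bins with the same CpG counts. Of the 174, 70 had 3 CpGs and 78 had 4, where a pair of equal distances is enough. By CpG count the ratio of the shares ran from 1.10 with 6 CpGs to 3.31 with 5. With 6 CpGs the shares were 2.17% (0.849 to 5.46) and 1.98%. Among bins also matched on the distance from the first to the last CpG, in steps of 20 bp, the shares were 3.56% and 2.93%, a ratio of 1.22. The commonest repeated distances in the 174 bins were 4 bp, in 27 of them, and 6 bp, in 15. This property was looked at after the bins named above had been seen.

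Outside the bins, coverage dropped over a short distance to a level slightly above that around other methylated bins. Measured outward from the outermost CpG of the bin, CpGs at 1 to 20 bp averaged 7.84 reads, against 3.37 around other methylated bins with the same CpG counts, a ratio of 2.33. The averages were 5.88 against 3.43 reads at 21 to 40 bp, 4.63 against 3.36 at 41 to 60 bp, 3.99 against 3.29 at 81 to 100 bp, and 3.52 against 3.16 at 141 to 160 bp. From there to 1000 bp the ratio stayed between 1.08 and 1.19. Near the bin the CpGs can be on the same reads or fragments as those that chose it; the labels state neither read nor fragment lengths.

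**Figure D3:**
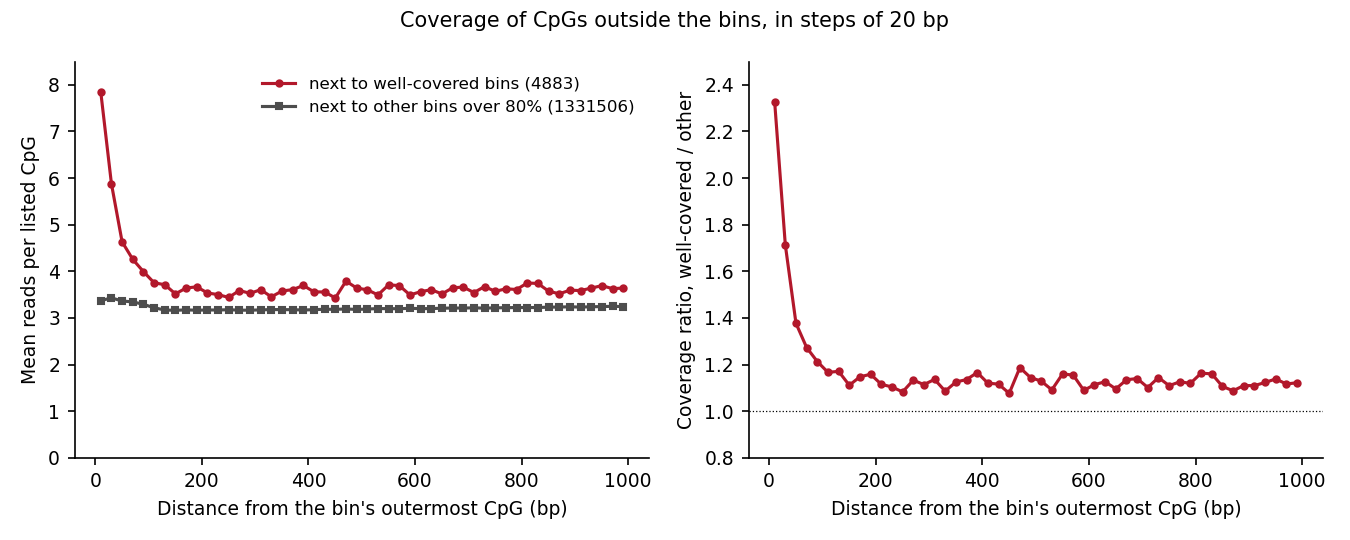
Mean reads per listed CpG of up to 19 reads (left) and the ratio of well-covered over other methylated bins (right) against the distance from the bin's outermost CpG, in steps of 20 bp. Coverage beside the well-covered bins is 7.84 reads at 1 to 20 bp and 3.52 at 141 to 160 bp, and the ratio then stays near 1.1 up to 1000 bp.

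Bin by bin, the excess was largest in the direct neighbours. The adjacent bins averaged 3.94 reads per listed CpG beside the well-covered bins and 3.23 beside the other methylated bins, a ratio of 1.22 (1.21 to 1.23). In bins 2 to 5 on each side, which begin 200 bp from the bin, the averages were 3.61 and 3.21 reads, a ratio of 1.12 (1.12 to 1.13). The 5 bins on each side together had 3.68 and 3.21 reads, a ratio of 1.15 (1.14 to 1.15). Further out the ratio was 1.11 for bins 6 to 10, 1.04 for bins 11 to 25 and 1.03 for bins 26 to 50. Slightly deeper coverage was thus seen for several kilobases.

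The excess in bins 2 to 5 was larger around bins with more CpGs. The averages were 3.55 against 3.201 reads around bins with 3 CpGs, a ratio of 1.11 (1.10 to 1.12), and 3.88 against 3.25 around bins with 7 or more, a ratio of 1.19 (1.17 to 1.22). Bins of 4, 5 and 6 CpGs lay between, at 1.13, 1.16 and 1.17. The ratio was above 1 on 19 of 19 autosomes, with a median of 1.11 and a range of 1.04 on chromosome 9 to 1.28 on chromosome 1. The number of listed CpGs in bins 2 to 5 was nearly equal, at 1.68 and 1.71 per bin.

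The excess was unevenly shared among the well-covered bins. With at least 5 CpGs in bins 2 to 5, the median of that surrounding coverage was 3.27 reads around 4455 well-covered bins (central 90% from 2 to 5.85) and 3.08 around the other methylated bins (1.91 to 4.56). Medians taken at each CpG count gave a ratio of 1.06. Surroundings under 3 reads were found for 35.4% of the well-covered bins and 44.0% of the others. Surroundings of 6 to under 9 reads were found for 3.70% and 0.443%, and of 9 or more for 0.808% and 0.00768%. Most well-covered bins therefore sat in ordinary coverage and a few in deep coverage.

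**Figure D4:**
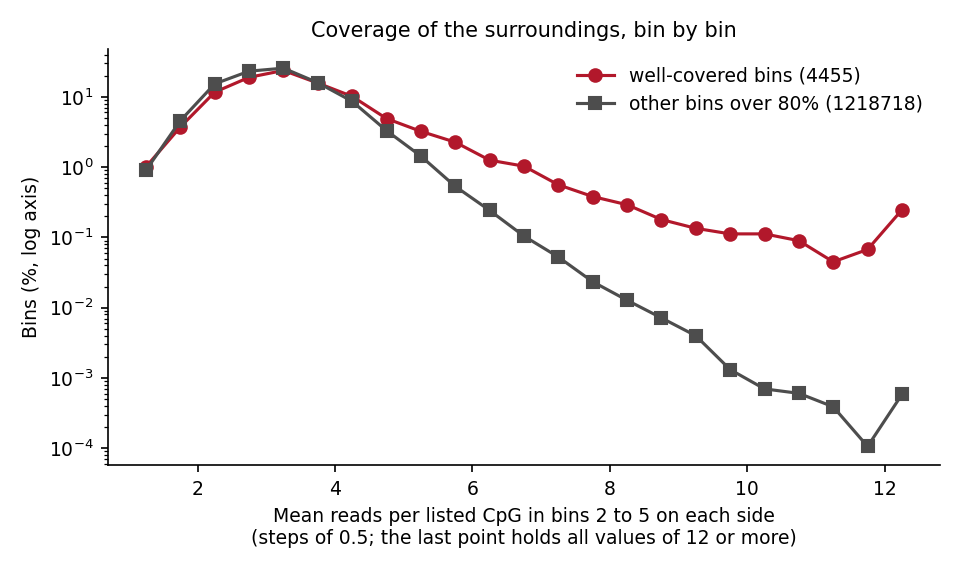
Percentage of bins (log axis) by the mean reads per listed CpG in bins 2 to 5 on each side, in steps of 0.5 reads, for 4455 well-covered and 1218718 other methylated bins with at least 5 CpGs there, the others weighted to the same CpG counts. The curves lie close together up to about 4 reads and separate increasingly above that, with 2.27% and 0.533% in the step that starts at 5.5 reads.

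The 201 well-covered bins with surroundings of 6 or more reads differed from the other 4254 in several measures. A CpG above 19 reads lay within 1 kb of 31.3% of them, against 0.588% of the rest. Such CpGs are not counted in the surrounding coverage but can share reads with CpGs that are. This contrast too follows in part from how the 201 were set apart. Their surroundings were 66.9% methylated, against 85.2%. A CpG-rich low-methylated region lay within 1 kb of 9.45% of them, against 1.20%. Such a region is a run of at least 30 CpGs of 5 or more reads with a running level under 50%. It can be called only in deep enough coverage, so this contrast follows in part from how the 201 were set apart. Another well-covered bin lay within 1 kb of 30.8%, against 2.54%, but such a bin itself raises the surrounding coverage by which the 201 were set apart. The bins themselves were 91.7% methylated, against 94.0%, and their CpGs spanned a median of 103 bp, against 69 bp.

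Coverage of the surroundings rose in steps with the coverage of the bin. In bins 2 to 5 it was 3.18 reads around methylated bins with a mean under 3, 3.23 at 3 to under 5, 3.28 at 5 to under 7 and 3.36 at 7 to under 9. Above the limit it was 3.55 at 9 to under 11, 3.85 at 11 to under 13 and 4.42 at 13 or more. The last class holds 178 bins. The CpG counts are not matched in this series of classes. The median distance from the first to the last CpG was 105 bp under 3 reads, 114 bp at 3 to under 5, 105 bp at 5 to under 7, 88 bp at 7 to under 9, 72 bp at 9 to under 11, 56 bp at 11 to under 13 and 46 bp at 13 or more, and so was not longest in the lowest class.

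The surroundings of the well-covered bins were mostly methylated too, but slightly less than those of the other methylated bins. In the adjacent bins 90.5% of reads were methylated, against 90.2%. In bins 2 to 5 the level was 83.3%, against 86.0%, a difference of -2.71 percentage points, and in bins 6 to 10 it was 73.1%, against 78.6%. The difference in bins 2 to 5 was smaller, at -1.35, among bins also matched on the number of CpGs within 1 kb. It was -1.37 for bins over 90% methylated and -1.66 for bins with no CpG above 19 reads within 10 kb. With no limit on reads per CpG, in the bins or around them, it was -4.87. At bins 26 to 50 both were 73.8%. Both sets of bins were chosen for high methylation, and around both the level fell with distance. These levels pool reads, so deep surroundings weigh more. The surroundings in bins 2 to 5 were 66.9% methylated for the 201 well-covered bins with 6 or more reads there, and 85.2% for the other 4254.

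Few well-covered bins had surroundings with a pooled level under 50%. The level pools both sides, so low methylation on a single side can be missed. Bins 2 to 5, where they had at least 10 reads, were under 50% methylated for 125 of 4555 well-covered bins, or 2.74%, against 1.83% of the others with the same CpG counts, and under 20% for 21 of them, or 0.461%, against 0.390%. In bins 6 to 10 a level under 50% was found for 265 of 4653, or 5.70%, against 4.02%. Surroundings over 80% were found in bins 2 to 5 for 81.0%, against 82.9%. The typical well-covered bin was thus surrounded by methylated DNA on this scale.

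**Figure D5:**
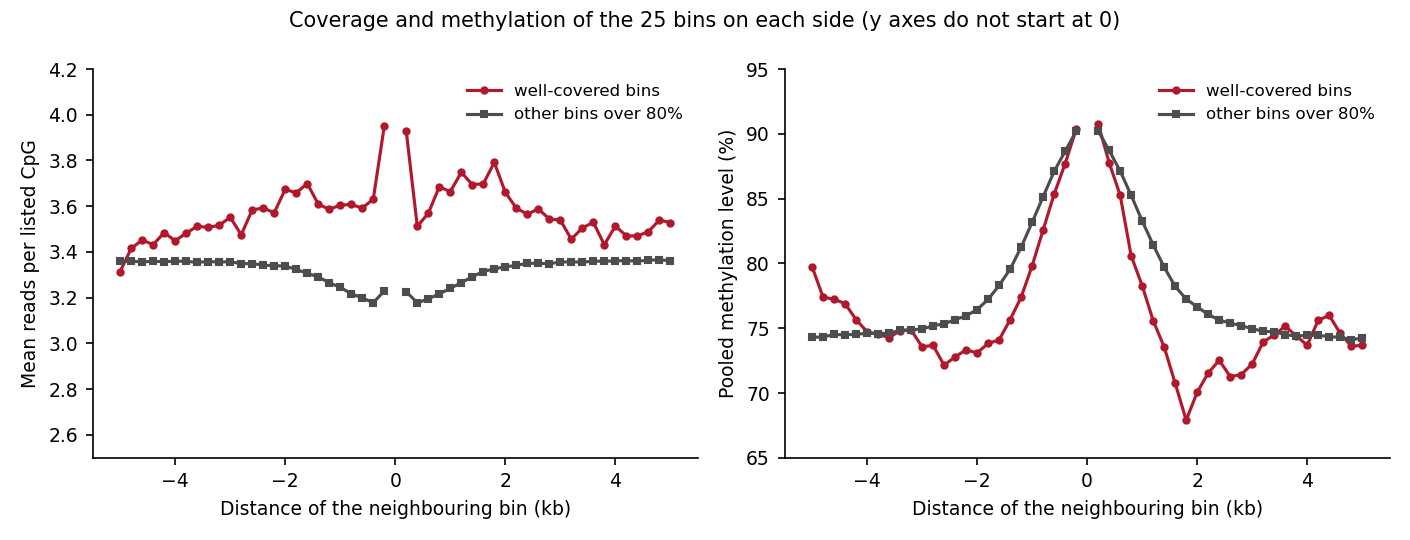
Mean reads per listed CpG (left) and pooled methylation level (right, percent) of each of the 25 bins on either side, against distance in kb, for well-covered bins and for other methylated bins weighted to the same CpG counts; the vertical axes do not start at 0. Coverage beside the well-covered bins is highest in the adjacent bins (3.94 reads), and their level is below that of the others at bins 6 to 10 (73.1% and 78.6%).

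The well-covered bins were scattered, with little clustering. The median distance from one to the next was 248.2 kb (quartiles 92.6 and 587). Another well-covered bin lay among the 5 bins on either side of 178 of them, or 3.65% (3.16 to 4.21), against 0.678% of other methylated bins with the same CpG counts. The shares were 1.52% and 0.162% for the directly adjacent bins, 9.77% and 5.72% within 10 kb, and 43.9% and 41.3% within 100 kb. The difference was thus a matter of short distances. Among bins with at least 4 CpGs the shares within 5 bins were 2.32% and 0.317%, and with no limit on reads per CpG 5.68% and 0.703%. Beyond the adjacent bins, 1.89% of the bins 2 to 5 with at least 3 CpGs, all of up to 19 reads, reached a mean of 9 around well-covered bins, whatever their level. Around the other methylated bins 0.363% did so.

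Joined where the space between them was at most 1 kb, the bins formed 4781 groups, of which 4685 were single bins, 90 were pairs and 6 held 3 bins. The first 5 groups of 3 lay on chromosomes 1, 1, 5, 6 and 10. The 12 CpGs of the group on chromosome 6 from 38652201 to 38653600 averaged 10.5 reads at a level of 96.03%, and the 10 CpGs on chromosome 10 from 39945801 to 39947400 averaged 10 reads at 98%. Around these 2 groups, within 5 kb, listed CpGs averaged 4.35 and 4.38 reads, with none above 19. The 9 CpGs on chromosome 5 from 100779801 to 100780600 averaged 11.1 reads at 99%, in surroundings of 3.44 reads. The 9 CpGs of the group on chromosome 1 from 82335401 to 82336400 averaged 9.89 reads at 94.4%, in surroundings of 5.64 reads. In the group on chromosome 1 from 90162001 to 90163000, 15 CpGs averaged 13.9 reads at 94.7%, and there 46 of the 162 CpGs within 5 kb were above 19 reads.

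That last group belongs to the densest gathering of well-covered bins. The 100 kb of chromosome 1 from 90100001 to 90200000 held 20 of them among only 35 methylated bins that met the limits on CpGs and reads. There 363 of 1118 listed CpGs, or 32.5%, had more than 19 reads, and the others averaged 9.98 reads with a level of 65.9%. The 20 bins had means of 9 to 18.3 reads and levels of 80.6% to 100%. Without this window the ratio for bins 2 to 5 was 1.14 on chromosome 1, against 1.28 with it, and 1.12 over all autosomes.

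Other windows held fewer. There were 8 on chromosome 17 from 13400001 to 13500000, 7 on chromosome 7 from 46500001 to 46600000 and 6 on chromosome 1 from 85200001 to 85300000, where 6.91%, 5.38% and 17.4% of listed CpGs exceeded 19 reads. The 7 on chromosome 10 from 121200001 to 121300000 differed from these, with no CpG above 19 reads among 1230 listed ones and an average of 3.56 reads. Of the 4171 windows with any well-covered bin, 3590 had 1.

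CpGs with very many reads were more often close to the well-covered bins. A CpG above 19 reads lay within 5 bins of 96 of them, or 1.97% (1.61 to 2.39), against 0.121% of other methylated bins with the same CpG counts. Within 10 kb the shares were 5.22% and 2.201%. Without the windows of 6 or more well-covered bins the share within 5 bins was 1.30%, against 0.120%. It was 1.01% at a minimum mean of 8 reads, 3.48% at 10 reads and 4.64% with no limit on reads per CpG. Among bins with no CpG above 19 reads within 10 kb, the ratio for bins 2 to 5 was 1.09 (1.09 to 1.09). Whether DNA present in more copies than the assembly holds adds to the coverage was not tested.

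The autosomes held similar numbers of well-covered bins for their size. There were 31.7 per 10000 methylated bins on chromosome 9 (27.9 to 36.0) and 41.6 on chromosome 3 (37.2 to 46.6), the lowest and the highest, with a median of 37.3. Per megabase of listed sequence the range was 1.83 on chromosome 14 to 2.69 on chromosome 19. With each chromosome divided into 5 equal parts from its first listed CpG, there were 41.2 per 10000 methylated bins in the first part and 36.8, 35.5, 35.3 and 35.3 in the following ones. In the mouse autosomes the first part is the one next to the centromere.

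The well-covered bins were not gathered near CpG-rich low-methylated regions on a large scale. There were 9287 such regions on the autosomes. The median distance to the nearest was 77.6 kb for the well-covered bins (quartiles 26.9 and 196) and 71.1 kb for the other methylated bins (26.1 and 183). Within 50 kb the shares were 39.1% and 39.5%. Within 5 kb they were 5.84% (5.21 to 6.53) and 4.93%, and within 1 kb 71 bins, or 1.45% (1.15 to 1.83), against 0.623%. A region can be called only where its CpGs have 5 or more reads, so shares at short distances depend in part on local coverage. The comparison share lay outside the counting interval at 1 and 5 kb and not at 50 kb. With the bins shifted by 100 bp the shares within 5 kb were 5.47% (4.87 to 6.15) and 4.91%, so that at 5 kb the comparison share then lay inside the interval.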

How the data were processed

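The deposited table gives, per the file headers, each CpG with its chromosome, its position and 2 counts, all reads and methylated reads. Both are raw counts without normalization by the authors. Bowtie was used with build mm9, per the submitters' processing notes. The sources used here do not give trimming, bisulfite settings, conversion rate, or how duplicates and multiply placed reads were treated. CpGs without reads are not listed. Positions may be shifted by 1 bp, since the table does not say whether they count from 0 or 1. The mm9 sequence and annotation were not used here, so no genes or sequences are given.

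CpGs were summed over bins of 200 bp. Coverage of neighbouring bins is the sum of reads over the number of listed CpGs, both over CpGs of up to 19 reads. Only the alternative with no limit on reads per CpG also counts the deeper CpGs of neighbouring bins. Values of other methylated bins are means over CpG counts, weighted by the number of well-covered bins at each count (13 or more CpGs as 1 class). The named bins are the 5 with the highest mean, the 5 with the most CpGs, 5 of the largest groups, and the 3 nearest to the limit on each side. The bins and limits were chosen with earlier results of these data known. No test was run. Alternatives changed 1 choice at a time, and the limit on reads per CpG was lifted for the bins and their neighbours together. Python 3.11.15, numpy 2.4.6, pandas 2.3.3 and matplotlib 3.10.9 were used, and the calculations were checked on simulated data.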

Additional observations from a re-analysis of the deposited data

Results flagged for a closer look

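Bins that met the same limits on reads and level also occurred outside the autosomal set described above. On the X chromosome 22 of 20952 methylated bins, or 0.105% (0.0694 to 0.159), had a mean of 9 or more reads, against 0.365% on the autosomes. X is present in fewer sperm than an autosome, and the part this plays was not tested. On the Y chromosome it was 1 of 275, or 0.364% (0.0642 to 2.03). On the autosomes 376 further bins over 80% methylated had at least 3 CpGs but a CpG above 19 reads, and 349 of these had a mean of 9 or more. A CpG of such depth brings most of a bin's mean with it, so that number follows largely from the choice.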

How the results depend on the processing

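No paired analysis was possible because 1 library was analysed. Of 69 alternative values, 19 lay inside the main value's counting interval (or, for bin numbers, within 1.5 times), 50 moved beyond it and 0 changed direction. Bin numbers, also those per 10000 methylated bins, have no direction to change. Nor has the share with a CpG above 19 reads nearby once such CpGs are excluded. Medians and the removal of windows with 6 or more well-covered bins were chosen after seeing the data. There were 12073 bins at a mean of 8 or more, 2009 at 10 or more and 1852 with at least 4 CpGs; the median per 10000 methylated bins on an autosome was 91.4 at 8 and 15.7 at 10 reads. The table holds 1 library, and depth limits the choice of bins, since few CpGs reach 9 reads.

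The coverage ratio of the 5 bins on each side was 1.10 (8 reads), 1.19 (10 reads), 1.14 (level over 90%), 1.55 (no limit on reads per CpG, also in the neighbours), 1.13 (bins shifted by 100 bp), 1.17 (4 CpGs), 1.11 (comparison bins of 5 to under 9 reads), 1.11 (no CpG above 19 reads within 10 kb), 1.15 (neighbours with 3 CpGs), 1.14 (matched on CpGs within 1 kb) and 1.13 (without those windows). That of bins 2 to 5, in the same order, was 1.08, 1.17, 1.12, 1.502, 1.12, 1.15, 1.10, 1.09, 1.13, 1.12 and 1.11, and 1.06 with medians. The difference in level in bins 2 to 5 was -1.75 (8 reads), -3.04 (10 reads), -1.37 (level over 90%), -4.87 (no limit), -2.92 (4 CpGs), -1.66 (no CpG above 19 reads within 10 kb), -3.82 (neighbours with 3 CpGs) and -1.35 percentage points (matched on CpGs within 1 kb).

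The share with another well-covered bin within 5 bins was 4.62%, against 1.75% of the other methylated bins (8 reads), 2.79% against 0.269% (10 reads), 3.095% against 0.555% (level over 90%), 5.68% against 0.703% (no limit), 3.15% against 0.684% (shifted) and 2.32% against 0.317% (4 CpGs). Against comparison bins of 5 to under 9 reads it was 3.65% and 1.04%. The share with a CpG above 19 reads within 5 bins, against 0.113% to 0.122% of the other methylated bins with each setting listed here that leaves such CpGs in, was 1.01% (8 reads), 3.48% (10 reads), 1.36% (level over 90%), 4.64% (no limit), 1.48% (shifted), 1.30% (without those windows) and, by construction, 0% without such CpGs within 10 kb. That alternative also gave 4.88% (4.30 to 5.54), against 4.29%, within 5 kb of a CpG-rich low-methylated region. The causes of these shifts were not tested.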
